A study of Mus musculus with 6 samples.

Results

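The 4 genes of the Mef2 family, Mef2a, Mef2b, Mef2c and Mef2d, are described here by the Lsd1 peaks found at them. A peak was taken as belonging to a gene when its centre lay inside the gene's curated RefSeq span or within 10 kb on either side. By this rule 36 peaks belonged to the 4 genes, 14 of 43426 of the myogenic library, 8 of 18893 of the adipogenic one and 14 of 33533 in LSD1(OE) cells. Of these, 10 were promoter peaks, with a centre within 2000 bp of a transcription start site (TSS) of the gene. Another 13 lay in the gene body, inside the span and not at a promoter, and 13 lay in the flanks. All 26180 genes of the same annotation were sorted in the same way for comparison.

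The data are ChIP-seq of Lsd1, a histone demethylase that removes methyl groups from lysines 4 and 9 of histone H3, in C2C12 cells, a mouse myoblast line, on day 1 of differentiation. Wild-type cells were kept in myogenic medium, which held 2% horse serum, or in adipogenic medium, which held fetal calf serum, isobutylmethylxanthine, indomethacin, dexamethasone, insulin, T3 and rosiglitazone. LSD1(OE) cells, a stable line with a Flag-tagged LSD1 under a tetracycline-dependent promoter that was kept on doxycycline, were placed in the adipogenic medium. Each condition had 1 ChIP library and 1 input library, so no value has a replicate, no test between conditions could be made, and every difference is one between single libraries. Transgene, selection and doxycycline came together in the LSD1(OE) cells and cannot be told apart, and whether the wild-type cells received doxycycline is not given in the sources used here. The peak lists hold no transcript or protein level, so neither the identity of the cells nor the amount of Lsd1 could be checked in them.

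Mef2 proteins are transcription factors of the MADS-box class that bind an A/T-rich element, here the MEF2 motif. In muscle they act with the basic helix-loop-helix factors of the MyoD group on genes of the contractile apparatus. They are held inactive by class IIa histone deacetylases and released by calcium and kinase signals. Mef2a and Mef2d are transcribed in many tissues, Mef2c is best known from muscle, heart, brain and B cells, and Mef2b from B cells.

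The genome around the peaks on which the results turn is shown first, as 300 bp on the coding strand of each gene from the mm10 assembly (GRCm38.p6, RefSeq). Capitals mark the MEF2 motif, the E-box form CAGCTG, the AP-1 element TGANTCA and the TEAD element GGAATG or its reverse complement CATTCC. The first sequence runs from 250 bp before to 50 bp after the Mef2a TSS (chr7:67372809-67373108, minus strand), and lay inside the promoter peak of all 3 libraries. The others are centred on peak summits. They are the Mef2a promoter summit in myogenic medium (chr7:67373170-67373469, minus strand), the strongest Mef2d peak of adipogenic medium in the first intron (chr3:88145519-88145818, plus strand), the Mef2b promoter peak of LSD1(OE) cells (chr8:70152519-70152818, plus strand) and both Mef2c peaks of myogenic medium (chr13:83614850-83615149 and chr13:83651852-83652151, plus strand).
Mef2a start site: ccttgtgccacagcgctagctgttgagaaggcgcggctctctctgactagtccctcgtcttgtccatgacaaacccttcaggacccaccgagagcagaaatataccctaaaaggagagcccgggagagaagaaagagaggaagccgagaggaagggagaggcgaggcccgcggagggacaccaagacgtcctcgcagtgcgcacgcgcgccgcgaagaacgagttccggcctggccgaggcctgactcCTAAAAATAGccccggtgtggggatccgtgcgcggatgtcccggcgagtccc
Mef2a promoter: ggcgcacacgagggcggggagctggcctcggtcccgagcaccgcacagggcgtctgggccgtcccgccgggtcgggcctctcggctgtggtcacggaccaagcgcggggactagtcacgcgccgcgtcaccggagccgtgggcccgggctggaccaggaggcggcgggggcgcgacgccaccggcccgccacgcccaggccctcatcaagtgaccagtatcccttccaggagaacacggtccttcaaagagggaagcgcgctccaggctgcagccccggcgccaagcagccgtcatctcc
Mef2d intronic: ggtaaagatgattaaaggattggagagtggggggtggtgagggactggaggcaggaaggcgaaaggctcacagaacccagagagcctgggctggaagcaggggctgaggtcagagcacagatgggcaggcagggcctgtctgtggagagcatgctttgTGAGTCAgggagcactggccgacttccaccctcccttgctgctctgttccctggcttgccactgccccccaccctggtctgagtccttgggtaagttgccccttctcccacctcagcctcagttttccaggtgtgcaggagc
Mef2b promoter: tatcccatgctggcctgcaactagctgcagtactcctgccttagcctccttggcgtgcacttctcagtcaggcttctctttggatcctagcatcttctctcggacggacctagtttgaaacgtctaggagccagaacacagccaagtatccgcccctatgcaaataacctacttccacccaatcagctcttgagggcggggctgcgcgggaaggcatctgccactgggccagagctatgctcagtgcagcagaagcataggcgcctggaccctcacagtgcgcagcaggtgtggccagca
Mef2c intronic 1: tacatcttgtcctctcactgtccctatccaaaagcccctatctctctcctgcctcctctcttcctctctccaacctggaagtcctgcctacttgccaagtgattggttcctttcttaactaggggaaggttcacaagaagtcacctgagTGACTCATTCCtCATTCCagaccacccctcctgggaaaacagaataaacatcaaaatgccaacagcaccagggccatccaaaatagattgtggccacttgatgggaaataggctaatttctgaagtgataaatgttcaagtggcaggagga
Mef2c intronic 2: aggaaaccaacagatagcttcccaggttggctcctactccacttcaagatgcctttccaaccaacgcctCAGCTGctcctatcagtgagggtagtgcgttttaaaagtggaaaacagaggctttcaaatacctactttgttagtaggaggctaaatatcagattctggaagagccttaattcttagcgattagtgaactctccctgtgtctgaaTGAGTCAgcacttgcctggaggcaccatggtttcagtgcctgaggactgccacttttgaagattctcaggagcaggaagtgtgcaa

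The Mef2a TSS sequence held 1 match to the MEF2 motif, ctaaaaatag in these letters, which began 2 bp upstream of the TSS and ended 7 bp downstream of it. Of 32851 mouse promoters of the same length, 3.19% held a match. The summit window beside it held none, and had 36 CpG dinucleotides, a GC content of 73.7% and a CpG ratio of 0.885, the observed over the expected number. That ratio was above 91.8% of the summit windows of the myogenic library. At the other extreme, the first Mef2c window had 0 CpG dinucleotides. It held 1 TGANTCA that ran into the first of 2 CATTCC. The second Mef2c window held 1 CAGCTG and 1 TGANTCA. A match is a string of letters and not a site shown to be occupied.

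Over all 36 summit windows of 300 bp, read on both strands, the MEF2 motif was found in 0. The share among all summit windows was 2.81%, 2.15% and 2.06% in the myogenic, adipogenic and LSD1(OE) libraries, so few matches were to be found in so few windows. TGANTCA was in 5 of 14 Mef2 windows in myogenic medium, where 18.9% of all windows held it. It was in 1 of 8 in adipogenic medium and in 1 of 14 in LSD1(OE) cells, beside 20.3% and 18.1% of all windows. The 5 myogenic windows were both Mef2c peaks, the Mef2a intronic peak, and the broad and the next Mef2d peak. CANNTG, the general E-box, was in 9 of 14, 6 of 8 and 11 of 14 windows, beside 79.7%, 80.5% and 80.8% of all windows, and a match to CAGCTG is counted in it too. The CAGCTG form was in 2, 2 and 3 windows, beside 25.8%, 29.3% and 25.9%. GGAATG was in 3 of 14 Mef2 windows in myogenic medium and in 0 of 8 and 0 of 14 in the others, where 17.7%, 16.6% and 16.4% of all windows held it.

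Mef2d had the most Lsd1 peaks of the 4 genes in each library, with 7 of 14 in myogenic medium (50%), 7 of 8 in adipogenic medium (87.5%) and 10 of 14 in LSD1(OE) cells (71.4%). Mef2a had 3, 1 and 2 peaks in this order, Mef2b had 2, 0 and 2, and Mef2c had 2, 0 and 0. Peaks lay at all 4 genes in myogenic medium, at 2 in adipogenic medium and at 3 in LSD1(OE) cells, where 62.5%, 41.2% and 53.9% of all genes had a peak in the same window. A promoter peak was found at Mef2a and Mef2d in all 3 libraries and at Mef2b in LSD1(OE) cells, that is at 2, 2 and 3 of 4 genes. Of all genes, 46.8%, 27.0% and 37.3% had a promoter peak by the same rule. With a narrower promoter window of 1000 bp Mef2d had no promoter peak in either wild-type library, a rule that goes by the peak centre. In myogenic medium the Mef2d TSS was nevertheless inside a peak, whose centre lay 1634 bp downstream. A gene-body peak was found at 4, 1 and 2 of the 4 genes, beside 21.4%, 11.2% and 17.1% of all genes. Shares of 4 genes are no result about the family. The gene-body share of myogenic medium stood above that of all genes, but it was not matched for gene length. Mef2a and Mef2c are long, at 142 and 163 kb.

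**Figure D1:**
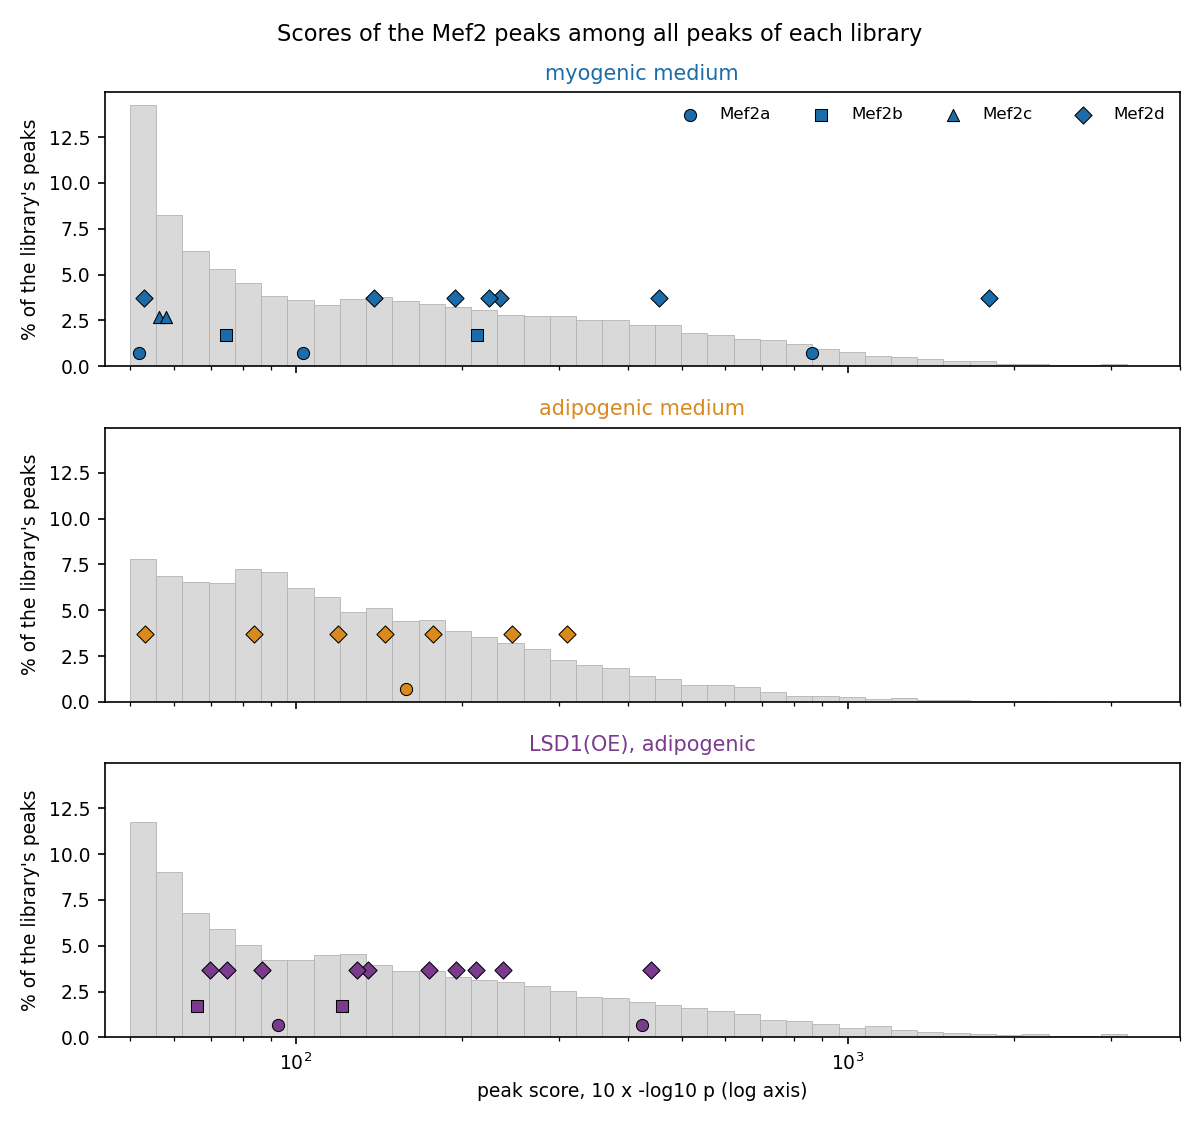
Scores of the Mef2 peaks (coloured symbols, 1 shape per gene, rows set apart only for legibility) on the distribution of scores of all peaks of each library (grey bars, per cent of the library's peaks, log axis). The highest score is the broad Mef2d peak of myogenic medium at 1807, both Mef2c peaks lie at the low end with 56.4 and 58.1, and no Mef2 peak of adipogenic medium exceeds 310.

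The score of a peak, 10 times the negative log10 of its p-value against the local background, ran from 51.9 to 1807 with a median of 166 over the Mef2 peaks of myogenic medium. It ran from 53.3 to 310 with a median of 152 in adipogenic medium, and from 66.2 to 440 with a median of 132 in LSD1(OE) cells. The medians over all peaks were 122, 112 and 116. A score of at least 100 was reached by 24 of the 36 peaks. The medians over all peaks lie above 100 too, so most peaks of each library reached it. The order by fold enrichment over the local background can differ from that by score. The strongest adipogenic Mef2 peak, at Mef2d, had a fold of 5.27, and the broad Mef2d peak of myogenic medium 4.27. At the Mef2a promoter the folds kept the order of the scores, with 4.59, 3.55 and 3.99 in myogenic, adipogenic and LSD1(OE) cells. The median folds over all peaks were 2.35, 3.21 and 2.32.

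Mef2d, on chromosome 3 from 88142372 to 88172091 (plus strand, 29.7 kb, 1 TSS), was peak-dense in each library. The peaks numbered 14.1 per 100 kb of the gene and its flanks in both wild-type libraries and 20.1 in LSD1(OE) cells, where the whole genome had 1.59, 0.693 and 1.23. They covered 23.9%, 18.6% and 23.2% of that window. As many peaks or more were found at 4.92%, 1.15% and 1.49% of all genes. Most of them lay upstream of the TSS or in the long first intron, within about 10 kb of the TSS.

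**Figure D2:**
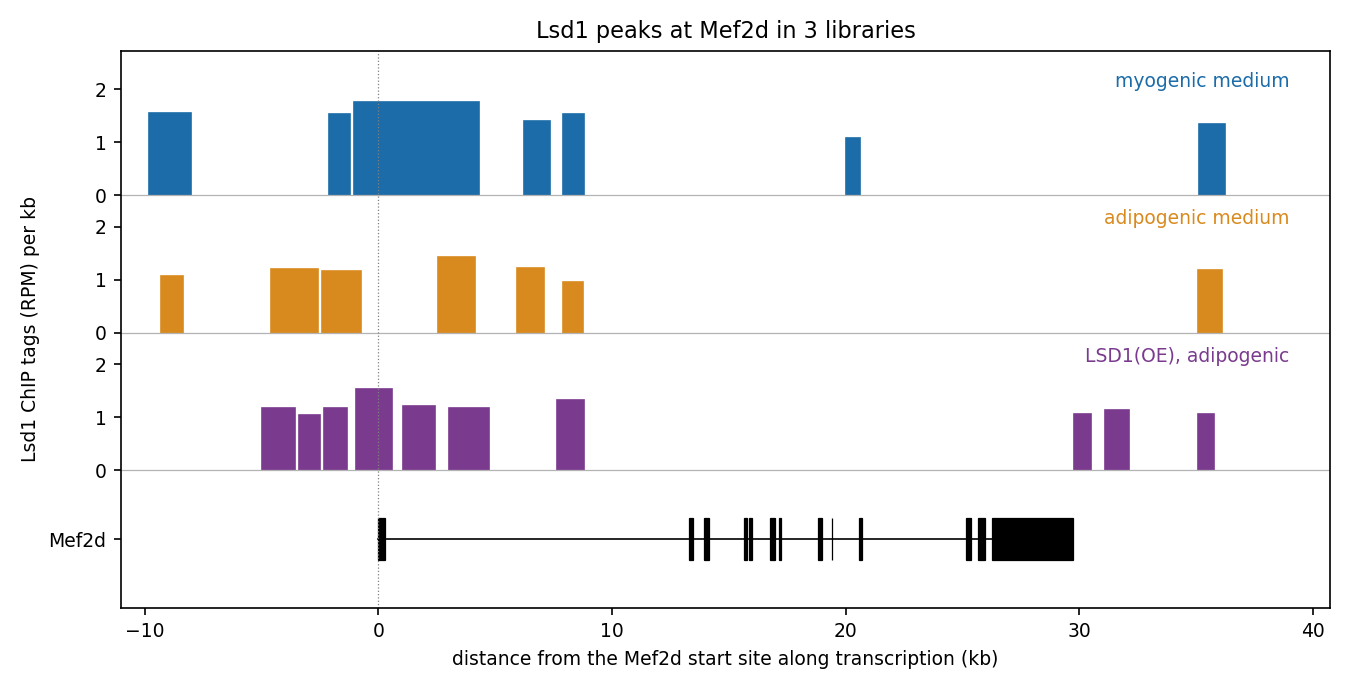
Lsd1 peaks along Mef2d, with the distance from the TSS in kb on the x axis, 1 row per library, bar width as the extent of a peak and bar height as its tags in RPM (tags per 1000000 filtered ChIP tags) per kb. The exons are black boxes on the bottom line. The myogenic row has 1 bar over the TSS where the LSD1(OE) row has 3 narrower ones, and the adipogenic row has a gap from 749 bp upstream to 2554 bp downstream of the TSS.

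The region around the Mef2d start site differed in shape between the libraries. In myogenic medium a single peak from 88141334 to 88146678 ran over the TSS, with 436 tags, a score of 1807, above 99.4% of all peaks of that library, and a length of 5345 bp, above 99.8% of them. The centre was 1634 bp downstream of the TSS, and the summit 3274 bp downstream of it, outside the promoter. In LSD1(OE) cells 3 peaks covered most of the same stretch. They were 88141431-88142980 over the TSS (132 tags, score 440), 88143417-88144808 (94 tags, score 212) and 88145384-88147110 (113 tags, score 237). In adipogenic medium only the last of these positions had a peak inside the gene, 88144926-88146535 with 148 tags and a score of 310, the strongest Mef2 peak of that library. Its summit lay 23 bp from that of the broad myogenic peak, while the summit of the LSD1(OE) peak there lay 491 bp from the myogenic and 468 bp from the adipogenic one.

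The Mef2d TSS itself was therefore inside a peak in myogenic medium and in LSD1(OE) cells but not in adipogenic medium. There the nearest peak edges were 749 bp upstream and 2554 bp downstream. A start site inside a peak was found for 41.9%, 23.4% and 31.9% of all genes in the myogenic, adipogenic and LSD1(OE) libraries. Of the other members, the Mef2a TSS was inside a peak in all 3 libraries, the Mef2b TSS in LSD1(OE) cells alone, and no TSS of Mef2c in any of the 3.

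A second Mef2d promoter peak was called in all 3 libraries, at 88140247-88141182 in myogenic medium (66 tags, score 234), 88139983-88141623 in adipogenic medium (123 tags, score 177) and 88140066-88141054 in LSD1(OE) cells (64 tags, score 135). Their summits lay 1731, 1786 and 1843 bp upstream of the TSS, within 112 bp of each other. In adipogenic medium it was the only promoter peak of Mef2d. Summed over the merged region from 2389 bp upstream to 4738 bp downstream of the TSS, the peaks held 10.9 RPM, tags per 1000000 filtered ChIP tags of the library, in myogenic medium (95% Poisson interval 9.95 to 11.9), 4.24 in adipogenic medium (3.75 to 4.78) and 7.30 in LSD1(OE) cells (6.61 to 8.05). The intervals do not overlap, but they cover counting error only. The summed peak length differed too, at 6.28, 3.25 and 5.66 kb, and per kb of peak the values were 1.73, 1.30 and 1.29 RPM.

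Further upstream the libraries parted. A region 7999 to 9816 bp upstream of the Mef2d TSS had a peak in myogenic medium (88132556-88134373, 130 tags, score 454) and in adipogenic medium (88133067-88134031, 66 tags, score 83.9), with summits 26 bp apart, and none in LSD1(OE) cells. At the adipogenic rate the LSD1(OE) library would have held 57.0 tags there, and at the myogenic rate 155, where its smallest called peak had 30. Peaks were called against the local background and not at a tag number. Here and below, such rates therefore do not show that a peak would have been called. The region next to it, 2492 to 4987 bp upstream, was peak-free in myogenic medium. It held 1 peak in adipogenic medium (88137781-88139787, 154 tags, score 246) and 2 in LSD1(OE) cells (88137385-88138808, 93 tags, score 195, and 88138995-88139880, 51 tags, score 86.7). The tags in peaks there came to 2.41 RPM in adipogenic medium (95% Poisson interval 2.04 to 2.82) and 2.61 in LSD1(OE) cells (2.20 to 3.07), and these intervals overlap. It was the only one of the 17 merged Mef2 regions found in both adipogenic libraries and not in myogenic medium. That is 5.88% of them, beside 2.45% of 56729 regions over the genome, and a share resting on 1 region is no result.

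Inside Mef2d, a peak in the first intron 8216 to 8356 bp downstream of the TSS was called in all 3 libraries, with 65, 52 and 84 tags and scores of 139, 53.3 and 174 in myogenic, adipogenic and LSD1(OE) cells. Its density was 1.53, 0.966 and 1.32 RPM per kb, with 95% Poisson intervals of 1.18 to 1.95, 0.722 to 1.27 and 1.06 to 1.64 that all overlap. The intronic peak between this one and the broad one was called in both wild-type libraries (73 and 90 tags, scores 224 and 145) and not in LSD1(OE) cells. A weak peak at 88162397-88163000 was found in myogenic medium alone, with 30 tags and a score of 53.0. It lay 262 bp upstream of an internal TSS that GENCODE M21 gives to Mef2d and curated RefSeq does not.

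Past the 3′ end of Mef2d, the TSS nearest to each peak was that of 1700113A16Rik. The region 35064 to 36242 bp downstream of the TSS had a peak in all 3 libraries (69, 77 and 40 tags, scores 194, 119 and 69.9), centred 272, 193 and 7 bp from the TSS of 1700113A16Rik. A pair of peaks between it and Mef2d, 88172143-88172857 (42 tags, score 75.1) and 88173489-88174522 (65 tags, score 129), was called in LSD1(OE) cells alone. Their centres lay 409 and 1914 bp past the end of Mef2d, and 5285 and 3780 bp from the TSS of 1700113A16Rik. At the same rate they would have held 35.1 and 54.4 tags in myogenic medium, where the smallest called peak had 27, and 48.6 and 75.3 in adipogenic medium, where it had 35.

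Mef2a, on chromosome 7 from 67231163 to 67372858 (minus strand, 142 kb, 1 TSS), had its strongest peak at the promoter in every library. It was called at 67372413-67374097 with 164 tags and a score of 860 in myogenic medium. In adipogenic medium it was called at 67372594-67374014 with 107 tags and a score of 158. In LSD1(OE) cells it was called at 67372660-67374057 with 122 tags and a score of 424. The tag density was 2.11 RPM per kb in myogenic medium (95% Poisson interval 1.80 to 2.46), 1.18 in adipogenic medium (0.966 to 1.42) and 1.58 in LSD1(OE) cells (1.31 to 1.89). The myogenic and adipogenic intervals do not overlap, while that of LSD1(OE) cells overlaps both. Among the promoter peaks of its library, the score stood above 90.5% in myogenic medium, above 58.8% in adipogenic medium and above 79.9% in LSD1(OE) cells. The myogenic and adipogenic summits were 27 bp apart, 462 and 489 bp upstream of the TSS. The LSD1(OE) summit was 708 bp upstream, at a position with 15 CpG dinucleotides in place of 36 in each of the other windows.

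A second Mef2a peak lay in an intron, 85121 bp downstream of the TSS in myogenic medium. It was called in myogenic medium (67287364-67288110, 42 tags, score 103) and in LSD1(OE) cells (67287223-67288173, 55 tags, score 92.7) with summits 93 bp apart, and not in adipogenic medium. At an FDR of 0.1% and in lists of equal length it remained in neither library, and at a minimum score of 100 in myogenic medium alone. With scores divided by the factors used to scale up the ChIP tags it remained in both, at 54.4 and 50.8. The densities, 1.22 and 1.05 RPM per kb, were near the medians of all peaks of these libraries, 1.22 and 1.13. At these rates the adipogenic library would have held 58.2 and 63.7 tags there. The remaining Mef2a peak, in myogenic medium past the 3′ end (67222263-67223055, 35 tags, score 51.9), was centred 43 bp from the TSS of Lysmd4.

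Mef2b, on chromosome 8 from 70152761 to 70167488 (plus strand, 14.7 kb, 1 TSS), had 1 promoter peak in all, in LSD1(OE) cells. It ran from 70152249 to 70153123 with 47 tags and a score of 66.2, above 14.0% of the promoter peaks of that library, and its summit lay 92 bp upstream of the TSS. At the same rate 39.3 tags would have fallen there in myogenic medium and 54.4 in adipogenic medium, where the smallest called peaks had 27 and 35. It did not remain under any of the 4 stricter rules tried. These were an FDR of 0.1%, a minimum score of 100, lists of equal length and ChIP tags left unscaled. For the last, each score was divided by the factor by which the ChIP tags had been scaled up. GENCODE M21, tried after seeing the data, gives Mef2b a further TSS at 70139711, more than 10 kb upstream of the RefSeq span. With it Mef2b also had a promoter peak in myogenic medium (70139194-70140040, 44 tags, score 92.3), which is not among the 36 and was centred 118 bp from a TSS that RefSeq gives to Borcs8 and Gm45929. Inside the span, myogenic medium had an intronic peak (70158062-70158798, 37 tags, score 74.5), 5669 bp downstream of the TSS. Both libraries also had a stronger peak beyond the 3′ end, with 69 tags and a score of 213 in myogenic medium and 59 tags and a score of 121 in LSD1(OE) cells, centred 39 and 76 bp from the TSS of Tmem161a. Adipogenic medium had no peak in the Mef2b window. Mef2b overlaps a readthrough transcript, Gm45929, that starts upstream of it, and tags could not be assigned to either.

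Mef2c, on chromosome 13 from 83504034 to 83667079 (plus strand, 163 kb, 4 TSSs), had no promoter peak in any library. In myogenic medium it had 2 intronic peaks, both weak. The first, at 83614731-83615301, had 28 tags and a score of 56.4, above 15.1% of all peaks of the library, in which the smallest called peak had 27 tags. The second, at 83651650-83652407, had 35 tags and a score of 58.1, above 17.7%, and lay 860 bp upstream of an internal TSS that GENCODE M21 gives to the gene. Neither remained under any of these 4 stricter rules. At the same rates 38.8 and 48.5 tags would have fallen there in adipogenic medium and 33.5 and 41.9 in LSD1(OE) cells, where the smallest called peaks had 35 and 30.

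**Figure D3:**
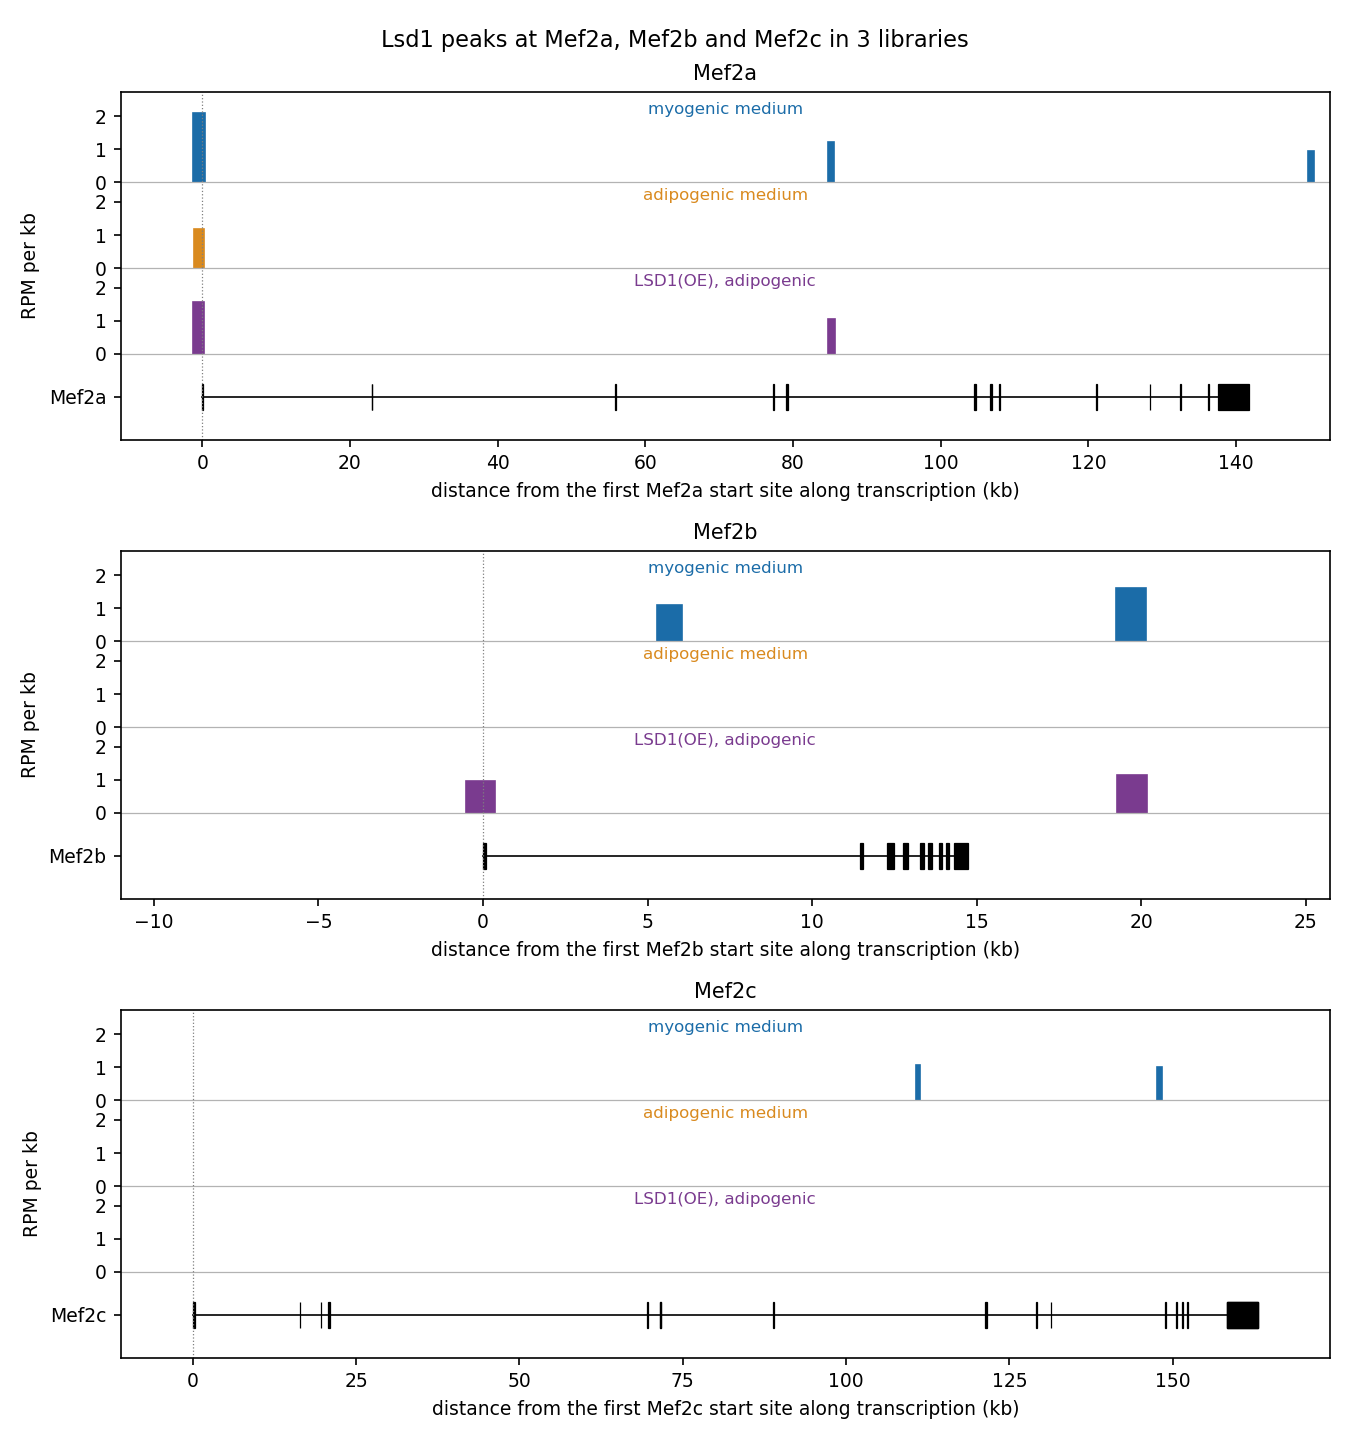
Lsd1 peaks along Mef2a, Mef2b and Mef2c, with the distance from the first TSS in kb on the x axis (a scale of its own in each panel), 1 row per library, bar width as the extent of a peak and bar height as RPM per kb. Mef2a has a promoter peak in each row, Mef2b has one in LSD1(OE) cells, and Mef2c has 2 weak intronic peaks in the myogenic row and nothing in the others.

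The absence of peaks at Mef2c reached far beyond the gene. In adipogenic medium no peak was called on chromosome 13 from 81783689 to 85188827, a stretch of 3.41 Mb with Mef2c near its middle, and in LSD1(OE) cells none from 81712329 to 85288352, or 3.58 Mb. Of 18873 gaps between neighbouring adipogenic peaks, 87 were as long or longer, and of 33512 gaps in LSD1(OE) cells 62 were, where the median gaps were 22.4 and 12.3 kb. The stretches held 9 and 11 curated genes, Mef2c included. From a Mef2c TSS to the nearest peak it was 1615221 bp in adipogenic medium and 1714746 bp in LSD1(OE) cells, a distance reached by 2.64% and 1.65% of the 26089 and 26180 genes on chromosomes with a peak. In myogenic medium it was 41124 bp, and 28.8% of all genes were as far or farther. Over the longer of these stretches, myogenic medium had 10 peaks, or 0.280 per 100 kb beside 1.59 over the genome, with scores from 55.3 to 455. Copy number and mappability of this stretch were not tested.

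Merged where they overlapped by at least 1 bp, the 36 peaks formed 17 regions. Of these, 4 had a peak in all 3 libraries, 1 at Mef2a and 3 at Mef2d, which is 23.5%, beside 20.6% of 56729 regions over the genome. There were 5 regions in myogenic medium alone (29.4%, beside 35.9%), with at least 1 at each of the 4 genes. LSD1(OE) cells alone had 3 (17.6%, beside 20.8%), and adipogenic medium alone had 0 (beside 3.70%). The adipogenic libraries alone shared 1, at Mef2d (5.88%, beside 2.45%). Both regions shared by the wild-type libraries alone lay at Mef2d (11.8%, beside 4.38%). The 2 regions in myogenic medium and LSD1(OE) cells but not in wild-type adipogenic cells lay at Mef2a and Mef2b (11.8%, beside 12.2%). Of the 13 flanking peaks, 8 were nearest to the TSS of another gene, Lysmd4, Tmem161a or 1700113A16Rik. So were 4 of the 13 gene-body peaks, 2 to that of Lysmd4 and 1 each to those of C130071C03Rik and 1700113A16Rik. All 10 promoter peaks were nearest to the TSS of their own gene.

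Summed over its peaks, Mef2d held 18.8 RPM in myogenic medium (95% Poisson interval 17.6 to 20.1), 11.1 in adipogenic medium (10.3 to 11.96) and 14.1 in LSD1(OE) cells (13.1 to 15.1). Mef2a held 5.22 (4.58 to 5.92), 1.67 (1.37 to 2.02) and 3.21 (2.75 to 3.72). Mef2b held 2.30 (1.88 to 2.78) in myogenic medium and 1.92 (1.57 to 2.32) in LSD1(OE) cells, which overlap. Of these, the flanking peak beside the TSS of Tmem161a held 1.495 and 1.069. Mef2c held 1.37 (1.05 to 1.75) in myogenic medium. Among all genes with a peak the medians were 3.42, 2.13 and 2.45. The windows differ in length, and per 100 kb of window the order changed. In myogenic medium it was Mef2d with 37.9 RPM per 100 kb, Mef2b with 6.61 (5.41 to 8.0), Mef2a with 3.23 (2.83 to 3.66) and Mef2c with 0.746 (0.573 to 0.954), and no neighbouring intervals overlapped. In LSD1(OE) cells it was Mef2d, Mef2b and Mef2a with 28.4, 5.53 and 1.98, and in adipogenic medium Mef2d and Mef2a with 22.3 and 1.04. Without flanks, which also leaves out promoter peaks centred upstream of the span, the myogenic sum fell to 0.802 RPM at Mef2b and 0.910 at Mef2a, both under that of Mef2c. Per 100 kb of span, Mef2a then stood below Mef2c in myogenic medium, at 0.642 against 0.837. These sums move with how much was called. The peaks of Mef2d covered 11.9, 9.23 and 11.6 kb at mean densities of 1.59, 1.20 and 1.22 RPM per kb, and those of Mef2a 3.23, 1.42 and 2.35 kb at 1.62, 1.18 and 1.37.

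**Figure D4:**
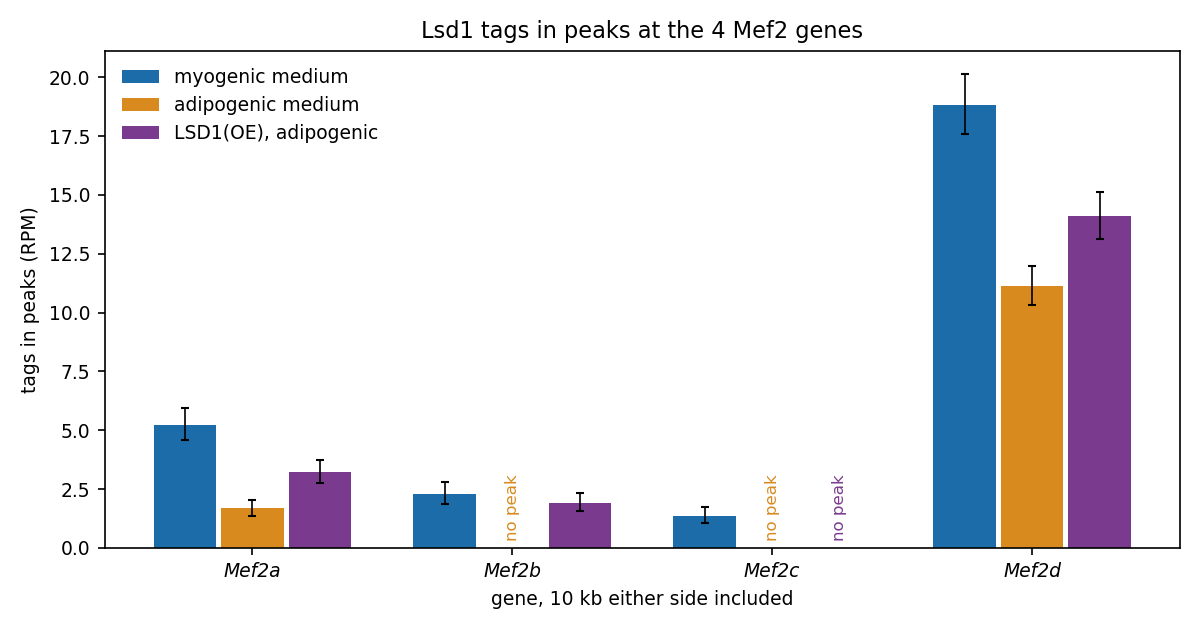
ChIP tags in peaks at each Mef2 gene with 10 kb either side, in RPM, with exact 95% Poisson intervals that cover counting error only. Mef2d stands at 18.8, 11.1 and 14.1, and myogenic medium is the highest of the 3 libraries at each of the 4 genes in this window. Without flanks the Mef2a promoter peak drops out, and LSD1(OE) cells are the highest at Mef2a by 1 intronic peak whose interval overlaps the myogenic one. Under the 4 stricter rules Mef2c has no peak in any library.

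With flanks of 10 kb, myogenic medium had the highest sum at each of the 4 genes, which was also so for the median over all genes. Without flanks Mef2a held 0.910 RPM in myogenic medium and 0.996 in LSD1(OE) cells, and under each of the 4 stricter rules Mef2c held 0 in all 3 libraries. Over the 9910 genes with a peak in all 3 libraries, the ratio of adipogenic to myogenic medium had a median of 0.492. Mef2a lay below it, at 0.321 (percentile 20.6), and Mef2d above it, at 0.590 (percentile 65.9). The ratio of LSD1(OE) to myogenic cells was 0.614 at Mef2a and 0.749 at Mef2d, beside a median of 0.678. That of LSD1(OE) to wild-type cells in adipogenic medium was 1.92 at Mef2a (percentile 73.5) and 1.27 at Mef2d (percentile 43.0), beside a median of 1.39. These ratios share libraries, and no more than 1 library stands behind each side. They count called peaks only, so a region with no call adds nothing to a sum. The myogenic sum of Mef2a held an intronic peak (0.910 RPM) and the peak beside the TSS of Lysmd4 (0.758). Neither was called in adipogenic medium, and the intronic one was called in LSD1(OE) cells (0.996). The promoter peak of Mef2a alone held 3.55, 1.67 and 2.21 RPM in myogenic, adipogenic and LSD1(OE) cells. The adipogenic library was the deepest, with 63915769 filtered ChIP tags beside 46155625 in myogenic and 55193310 in LSD1(OE) cells, and had the smallest share of tags in peaks, 3.20% beside 7.12% and 5.29%. The part that this share has in the values at the Mef2 genes was not tested.

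The genes whose 3 sums were most like those of Mef2a were Snn (distance 0.0890), Rps28 (0.110) and Prelp (0.120), and those most like Mef2d were Smarcd3 (0.0950), Slc9a5 (0.120) and H3c13 (0.130). The distance is the Euclidean one over the 3 libraries in log2 of RPM, after adding 0.01, among the 9910 genes. For Smarcd3 the sums were 18.5, 11.7 and 13.6 RPM in myogenic, adipogenic and LSD1(OE) cells, and for Snn 5.11, 1.61 and 3.35.

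Of 21 genes known to act on or with Mef2 proteins or to be their targets, a promoter peak was called at 18 in the myogenic, 13 in the adipogenic and 16 in the LSD1(OE) library. Of all genes, the shares were 46.8%, 27.0% and 37.3% as above. The list was chosen with earlier results of these data known, and all genes include noncoding ones. Here and below, the shares are therefore no result about the listed genes. The median score of the strongest promoter peak was 527, 161 and 298, beside medians of 257, 132 and 177 over all promoter peaks, each gene being counted here by its strongest one. A gene-body peak was found at 9, 8 and 7 of the 21, beside 21.4%, 11.2% and 17.1% of all genes. These gene-body shares were not matched for gene length. A promoter peak was called in all 3 libraries at 13 genes, beside 23.5% of all genes, and in myogenic medium and LSD1(OE) cells at 3, beside 10.8%. It was called in myogenic medium alone at 2, beside 9.98%, and in no library at 3, beside 49.7%. The scores rest on ChIP tags scaled up by 1.90, 1.28 and 1.82. Divided by these factors, they fell under the cut-off of 50 at Myf6 and Ppargc1a in myogenic medium, Ep300 in adipogenic medium and Ppp3cb and Myog in LSD1(OE) cells, which left 16, 12 and 14 genes. Of the 13 genes called in both adipogenic libraries, 3 then had the higher score in wild-type cells instead of LSD1(OE) cells, Hdac4 (182 against 149.9), Mapk14 (233 against 166) and Ppp3cb (53.2 against 49.99).

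Among the class IIa deacetylases, which hold Mef2 proteins inactive, Hdac4 had promoter scores of 760, 233 and 274 and Hdac7 of 750, 125 and 933 in myogenic, adipogenic and LSD1(OE) cells. Hdac5 had 483 in myogenic medium and 354 in LSD1(OE) cells and no promoter peak in adipogenic medium, and Hdac9 had none in any library. Gene-body peaks were many at Hdac4, with 13, 11 and 24. All 4 genes of the kinases and the phosphatase that modify Mef2 proteins had a promoter peak in each library. The scores were 896, 297 and 303 at Mapk14, 439, 126 and 337 at Mapk7, and 606, 270 and 125 at Ppp3ca, a catalytic subunit of calcineurin. They were 191, 67.9 and 91.2 at Ppp3cb, another catalytic subunit of it.

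Of the coregulators, the acetyltransferase gene Ep300 had scores of 1400, 52.6 and 394, the widest range on the list. Carm1, which encodes an arginine methyltransferase, had 656, 298 and 243. Cabin1, which encodes an inhibitor of calcineurin and Mef2, had 803 in myogenic medium, 285 in LSD1(OE) cells and no promoter peak in adipogenic medium. The basic helix-loop-helix partners had weaker promoter peaks in myogenic medium, 106 at Myod1, 111 at Myog and 82.3 at Myf6, and none at Myf5. In LSD1(OE) cells Myog had a score of 55.2 and Myf6 of 293, and in adipogenic medium only Myf6 had a promoter peak, at 161. Myf5 and Myf6 are neighbours, and Myf5 had flanking peaks in each library.

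Among the target genes, Jun had promoter scores of 1124, 262 and 497, Nr4a1 of 487, 169 and 589, and Klf2 of 568, 147 and 975. At Klf2, Nr4a1 and Slc2a4, which encodes a glucose transporter and had 151, 151 and 288, the LSD1(OE) score was the highest of the 3. Ppargc1a, the gene of a coactivator of mitochondrial genes, had a promoter peak in myogenic medium alone, with a score of 92.4. Ckm, the gene of muscle creatine kinase, had no promoter peak but a gene-body peak in each library, with scores of 322, 127 and 297.

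**Figure D5:**
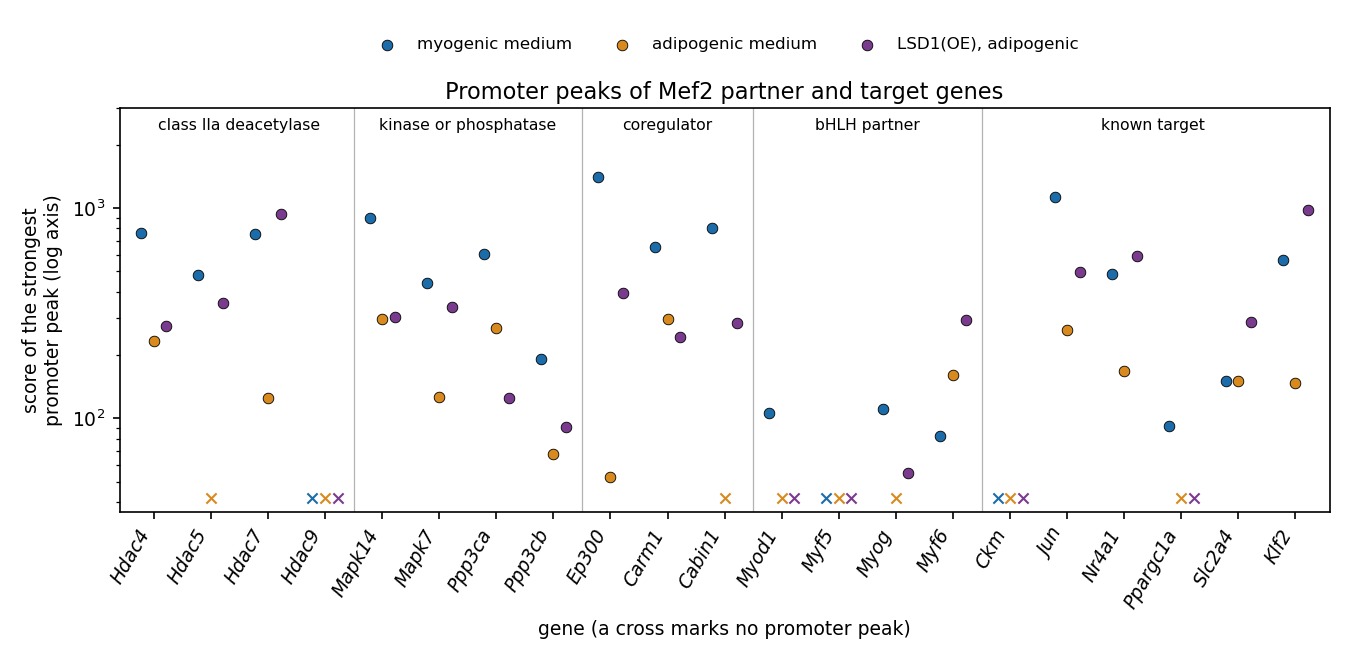
Score of the strongest promoter peak of each of 21 Mef2 partner and target genes (log axis), grouped by role, with 1 point per library and a cross where no promoter peak was called. The 13 genes with 3 points include all 4 kinase and phosphatase genes, and Hdac9, Myf5 and Ckm have crosses only.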

How the data were processed

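Lsd1 ChIP-seq was analysed from the deposited peak lists of 3 ChIP libraries, each called against its own input, on day 1. The authors sequenced 50 bp single reads and mapped them to mm10 with Bowtie, given as Bowtie2 in the submitters' processing notes. Peaks were called with MACS (1.4.2 per the file headers, 1.41 in those notes) at a p cut-off of 1e-05. The deposited counts are ChIP tags per peak after removal of duplicates, not normalized. The deposited score of a peak equals −log10 of its p-value multiplied by 10. For that p-value MACS brought the ChIP tags, the smaller set, up to the input by factors of 1.90, 1.28 and 1.82 in the myogenic, adipogenic and LSD1(OE) libraries. The deposited fold enrichment is over the local background and is printed here only beside the summary of the scores. The deposited FDR is in percent, and all peaks were under 1%, as the study's methods require. The deposited BED files hold the same peaks and were not used further. Depth and the local background set what could be seen, and more tags than the smallest called peak (27, 35 and 30) need not give a call. In adipogenic medium a Mef2d peak with 52 tags scored 53.3, close to the cut-off of 50. The lists hold only what passed the cut-off, so the level where no peak was called is unknown.

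Gene spans and TSSs came from curated RefSeq transcripts on GRCm38.p6 (26180 genes, 31647 TSSs). A peak was a promoter peak of a gene when its centre lay within 2000 bp of any of its TSSs. Tag densities are per kb of peak and per 1000000 filtered ChIP tags (RPM), with exact 95% Poisson intervals for counting error only. PCR copies were limited by position and not by molecular identifiers. Motifs were searched in 300 bp around summits and, over 32851 promoters, in the RefSeq promoter table of GRCm38.p6, in which all 4 members matched by symbol.

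The members, the partner list and the genes named by rule (every member with every peak, the gene of the nearest TSS, the listed partners and targets, and for members with peaks in all 3 libraries the 3 genes nearest in tags) were chosen with earlier results of these data known. The gap around Mef2c and the start sites inside peaks were looked at after the peak values had been seen. Results were recomputed at an FDR of 0.1%, with a minimum score of 100, with lists of equal length, with ChIP tags left unscaled, and with other promoter windows, flanks, assignments and definitions of shared regions. GENCODE M21 TSSs were tried after seeing the data. The steps were tested on simulated data. Python 3.11.15, NumPy 2.4.6, pandas 2.3.3, SciPy 1.17.1 and matplotlib 3.10.9 were used. RNA-seq and reads were not analysed here.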

Additional observations from a re-analysis of the deposited data

How the results depend on the processing

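Values stand in the order myogenic, adipogenic, LSD1(OE) unless a library is named. The causes of the changes beyond the settings' own construction were not tested. Without scaling means that the deposited scores were divided by the scaling factors, with no new peak calling. Mef2 peaks numbered 14, 8 and 14. They came to 8 (myogenic) and 7 (LSD1(OE)) at an FDR under 0.1%, 9 and 9 at a score of at least 100, 7 and 9 at equal peak numbers, 9 (myogenic) without scaling of ChIP tags, 8, 3 and 4 without flanks, and 22 (myogenic) and 14 (adipogenic) with 50 kb flanks. The 7 gene-body peaks of myogenic medium fell to 2, 3, 1 and 3 under the first 4 of these settings. RPM in peaks at the 4 genes, 27.7, 12.8 and 19.2, became 23.2, 10.9 and 12.7 at the stricter FDR, 24.1, 10.9 and 15.0 at the higher score, 21.8 (myogenic) and 15.0 (LSD1(OE)) at equal peak numbers, 24.1 (myogenic) and 16.0 (LSD1(OE)) without scaling, 16.2, 4.54 and 6.27 without flanks and 40.4, 24.2 and 27.1 with 50 kb. The 4 regions in all 3 libraries became 2 at the stricter FDR, the higher score, equal peak numbers, without scaling and without flanks, and 7 with 50 kb flanks. With a promoter window of 1000 bp, promoter peaks numbered 1, 1 and 3, and 1 gene had one in each wild-type library, since Mef2d lost its own there. At 5000 bp they numbered 4 (adipogenic) and 8 (LSD1(OE)), and with GENCODE M21 TSSs, tried after seeing the data, 6 at 4 genes in myogenic medium. The strongest promoter score of 1807, 177 and 440 became 953, 139 and 241 without scaling, 860 (myogenic) and 158 (adipogenic) at 1000 bp and 310 (adipogenic) at 5000 bp. Membership by summit or by any overlap, the most upstream TSS alone, the nearest-TSS rule and stricter definitions of a shared region changed none of these summary values by over 1.5 times. No paired analysis was possible because each condition had 1 ChIP library, and for the same reason no replicate could be left out.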
